A study of Mus musculus with 4 samples.

Results

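The G2 and mitosis genes described here are 42 genes, chosen by symbol, whose transcripts are known to peak between the end of DNA replication and cell division. They were measured by single-cell RNA-seq in mouse mammary tissue on embryonic days E13.5, E14.5 and E15.5 and on the day of birth, postnatal day 0 (P0), among 32932 genes listed in at least 1 of the 4 libraries. The 42 genes are listed in the table of every stage. All 4 groups were wild-type (WT) female C57B6 mice (substrain C57 B6/N in the study's methods), with no transgene and no treatment, and differ only in stage by their labels. Mammary rudiments with their surrounding mesenchyme were pooled over all bud pairs of several embryos and dams, in a separate dissection session for each stage, so that each stage is 1 library. CD45+, CD31+ and Ter119+ cells were excluded by sorting, and EpCAM+ and EpCAM- cells were taken as epithelial and mesenchymal. At P0 the enzyme mix differed from that of the embryonic stages and red blood cells were lysed. Stage therefore cannot be told apart from library, dissection session or, for P0, dissociation.

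A dividing cell builds up these transcripts in order. During late S phase and G2, topoisomerase and the condensins prepare replicated chromosomes for separation, while A- and B-type cyclins activate the kinase Cdk1. In mitosis, kinetochore proteins attach chromosomes to the spindle, checkpoint kinases hold the cell until every chromosome is attached, and the anaphase-promoting complex with its activator Cdc20 then destroys the cyclins. Kinesins and contractile ring proteins finish division. Embryonic mammary buds grow slowly at first and then sprout and branch into the underlying mesenchyme, and EpCAM+ cells dissected from such rudiments can include overlying skin.

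Many of these genes are known to share promoter elements, the CCAAT box bound by NF-Y and the cell cycle homology region (CHR) bound by the DREAM and B-Myb complexes, so the promoters of 7 of them, taken from RefSeq (GRCm38.p6) and chosen after their motifs and the extent of their genes had been seen, are shown before the levels. Each sequence runs 5′ to 3′ on the gene's own strand, with a CCAAT box (CCAAT, or ATTGG on the other strand) and a CHR (TTTGAA or TTCAAA, or TTTAAA) in capitals. Motifs this short match often, and a match is a description, not a site. The stretch of Cdc20 is 141 bases long and ends 10 bases before the start site, and the other 6 stretches are the 150 bases before the start. Top2a encodes the topoisomerase that disentangles sister chromatids (chr11:99024190-99024339, minus strand), Hmgb2 a chromatin-bending protein (chr8:57511693-57511842, plus strand), Ccnb2 a B-type cyclin (chr9:70421555-70421704, minus strand) and Plk1 a mitotic kinase (chr7:122159285-122159434, plus strand). Cdc20 encodes the activator of the anaphase-promoting complex (chr4:118437353-118437493, minus strand), Kif11 the kinesin that separates spindle poles (chr19:37376232-37376381, plus strand) and Birc5 the chromosomal passenger protein survivin (chr11:117849087-117849236, plus strand).
Top2a: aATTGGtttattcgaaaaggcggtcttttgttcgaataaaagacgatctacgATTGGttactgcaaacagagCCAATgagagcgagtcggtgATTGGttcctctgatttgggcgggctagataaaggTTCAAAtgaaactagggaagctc
Hmgb2: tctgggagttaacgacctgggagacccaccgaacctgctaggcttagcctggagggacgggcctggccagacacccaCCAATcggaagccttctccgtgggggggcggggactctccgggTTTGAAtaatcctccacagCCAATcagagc
Ccnb2: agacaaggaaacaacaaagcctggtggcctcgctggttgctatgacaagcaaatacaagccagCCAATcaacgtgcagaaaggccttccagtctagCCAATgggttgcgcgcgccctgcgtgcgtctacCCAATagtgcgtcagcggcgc
Plk1: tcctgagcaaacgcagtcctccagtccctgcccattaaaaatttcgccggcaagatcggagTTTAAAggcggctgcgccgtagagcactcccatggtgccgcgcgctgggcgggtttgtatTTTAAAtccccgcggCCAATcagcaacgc
Cdc20: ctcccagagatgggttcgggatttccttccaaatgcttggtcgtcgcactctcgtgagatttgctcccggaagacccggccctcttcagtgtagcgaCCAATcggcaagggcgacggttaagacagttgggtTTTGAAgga
Kif11: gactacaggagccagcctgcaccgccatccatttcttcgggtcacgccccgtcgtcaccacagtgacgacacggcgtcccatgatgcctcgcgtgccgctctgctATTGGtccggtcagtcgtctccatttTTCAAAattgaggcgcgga
Birc5: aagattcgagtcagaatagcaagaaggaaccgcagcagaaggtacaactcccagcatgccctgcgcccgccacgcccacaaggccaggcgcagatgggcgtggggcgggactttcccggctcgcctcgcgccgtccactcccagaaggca

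Top2a had 4 CCAAT boxes and 1 CHR in this stretch, Hmgb2 had 2 and 1, and Plk1 had 1 CCAAT box with 2 copies of TTTAAA. Ccnb2 had 3 CCAAT boxes and no CHR here. Birc5 had neither, and this says only that these letters are missing from this window. RefSeq promoters were given for 37 of the 42 genes (all but Tpx2, Aurkb, Smc4, Ccna2 and Kif20a). In the 300 bases from 250 before to 50 after the start, both strands searched, 29 of the 37 held CCAAT (78.4%, against 37.9% of 27025 promoters) and 29 held TTTGAA (78.4%, against 18.1%). TTTAAA, which reads the same on both strands, was found in 10 (27.0%, against 13.2%). A CCAAT box together with either CHR form was found in 28 (75.7%, against 10.9%). The G/C-rich GGCGGG was found in 26 (70.3%, against 35.5%). The E2F-type letters TTTGGCG and TTTCCCG, which belong to genes of S phase entry as well, were found in 1 (2.70%, against 1.59%) and 4 (10.8%, against 3.504%). These shares describe the promoters and were not tested.

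The 4 tables hold 981, 807, 2642 and 1466 barcodes in order of stage, with 5705131, 3577372, 28461610 and 7099444 UMIs (unique molecular identifiers, each 1 counted transcript molecule). A minimum of 5000 UMIs and a mitochondrial share of up to 6% left 235, 76, 816 and 503 cells, with median depths of 17908, 25207, 24646.5 and 9226 UMIs. A cell was epithelial where its summed UMIs of Epcam, Krt8, Krt18, Krt5 and Krt14 exceeded those of Col1a1, Col1a2 and Col3a1, and mesenchymal in the opposite case. The 3 cells with equal sums stayed out, of which 2, at E13.5, were called G2/M. The 5 epithelial genes summed to between 3280 and 14210 CPM (counts per 1000000 UMIs) in epithelial cells and between 45.2 and 325 in mesenchymal cells, and the 3 collagen genes to between 4630 and 68881 in mesenchymal cells and between 26.5 and 352 in epithelial cells. Of the lists of 6 genes for other cell types, the endothelial, immune, melanocyte or Schwann, muscle and pericyte lists stayed at 132 CPM or under in each group, and the immune list had 0 UMIs at E13.5 and E14.5. The erythroid list reached 13224 CPM in P0 mesenchymal cells, of which 99.7% lay in 4 cells, none called G2/M. No barcode of a kept cell was shared between libraries. None of the 42 genes overlaps a protein-coding gene on its own strand, and 8 overlap one on the opposite strand. Random thinning brought every cell to 5000 UMIs before scoring, and levels are CPM of these thinned UMIs. Because no stage has a second library, no test was made. The intervals are exact 95% binomial or Poisson limits, cover counting error only, and leave out differences between embryos and libraries. Those of levels and ratios take UMIs as independent and so also leave out differences between cells.

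A cell was called G2/M where at least 10 of the 42 genes had a UMI after thinning, which is a cut along a range and not a cell type. The share of such cells was highest in E13.5 epithelium and lowest in P0 mesenchyme, and the order of the tissues changed with stage. At E13.5, 37 of 98 epithelial cells were called (37.8%, interval 28.2 to 48.1) and 34 of 135 mesenchymal cells (25.2%, 18.1 to 33.4), and these intervals overlapped. At E14.5 the calls were 5 of 45 epithelial cells (11.1%, 3.71 to 24.1) and 10 of 31 mesenchymal cells (32.3%, 16.7 to 51.4), again with overlap. The largest library, E15.5, gave 75 of 532 epithelial cells (14.1%, 11.3 to 17.3) and 71 of 283 mesenchymal cells (25.1%, 20.1 to 30.6), whose intervals did not overlap. At P0 the order was opposite, with 14 of 230 epithelial cells (6.09%, 3.37 to 10.0) and 2 of 273 mesenchymal cells (0.733%, 0.0888 to 2.62), also without overlap.

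**Figure D1:**
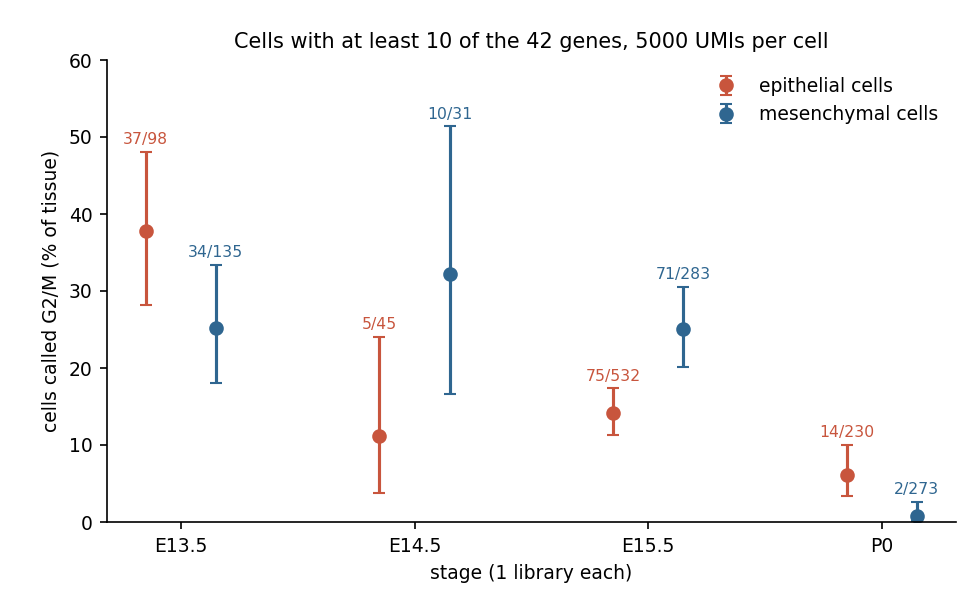
Share of cells called G2/M (percent, vertical axis) by stage for epithelial and mesenchymal cells, with exact 95% binomial intervals for counting error. Epithelium goes from 37.8% at E13.5 to 6.09% at P0, and mesenchyme lies between 25.1% and 32.3% at the embryonic stages and at 0.733% at P0.

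In mesenchyme, the intervals of the 3 embryonic shares overlapped and the P0 share lay below all of them. In epithelium, the E13.5 interval lay above those of the other stages, while E14.5 overlapped both E15.5 and P0. The share depended on depth at some stages. Without thinning it was 46.9% and 31.9% at E13.5 (epithelial and mesenchymal), 31.1% and 38.7% at E14.5, while E15.5 had 23.7% and 35.0% and P0 had 7.39% and 0.733%, so the E14.5 epithelial share stood under that of E15.5 at equal depth but not without thinning. With a minimum of 10000 UMIs and thinning redrawn, P0 epithelium had 14 calls among 112 cells (12.5%). Scoring phases with 2 gene lists relative to each library's own background, instead of counting genes, put 47.4% of P0 epithelial and 21.6% of P0 mesenchymal cells in G2/M, against 31.6% and 21.5% at E13.5. Of those P0 cells, 109 and 59, only 13 and 2 held 10 of the 42 genes.

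The call lay in a thin part of the distribution. Low numbers were the most common, with 0 to 3 genes found in 50%, 75.6%, 74.4% and 89.6% of epithelial cells in order of stage and in 59.3%, 54.8%, 63.6% and 98.2% of mesenchymal cells. Between 8 and 11 genes, next to the cut, lay 7, 1, 20 and 4 epithelial cells in order of stage and 3, 3, 9 and 0 mesenchymal cells. Called cells held a median of 15 to 25 genes in the 8 groups of stage and tissue, and the other cells 1 or 2. The largest number in a cell was 37, in E14.5 mesenchyme.

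**Figure D2:**
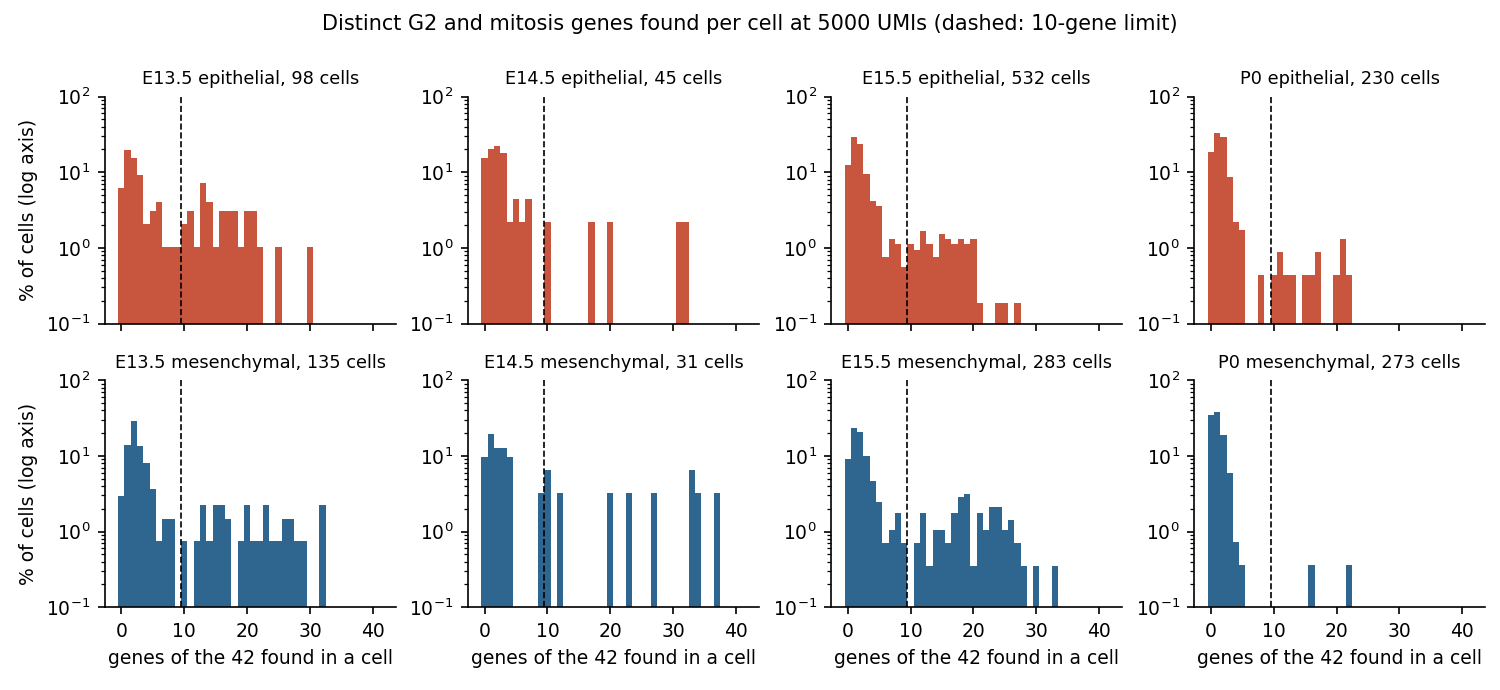
Number of the 42 genes found per cell after thinning to 5000 UMIs (horizontal axis) and share of cells (percent, log axis) for each stage and tissue, with a line at the cut of 10 genes. Cells with 0 to 3 genes make up 50% to 98.2% by group, and a tail of called cells extends up to 37 genes.

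Called cells were also deeper before thinning, a quantity the call did not use. Their median depth was 1.48, 1.29, 1.43 and 2.02 times that of the other epithelial cells in order of stage, and 1.43, 1.57, 1.54 and 1.10 times that of the other mesenchymal cells, the last from 2 cells. In E15.5 epithelium this was 34116 UMIs against 23825. The number of genes found per thinned cell differed less, with medians of 2056 and 1967 there. Cells with marked expression of both tissues' genes, which include possible doublets across tissues, numbered 6, 0, 6 and 9 in order of stage, of which 3, at E13.5, were called. Of these 3, 2 were cells with equal sums, which belonged to neither tissue already. Leaving the mixed cells out also redrew the thinning of the cells that stayed. The E13.5 epithelial share was then 34.7%, and no other of the 8 shares moved by more than 1 point. The part of the new draw in this was not tested.

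Transcripts of S phase lay partly in the same cells. A list of 40 replication genes was scored by the same cut of 10. It was also passed by 22 of 37, 2 of 5, 39 of 75 and 3 of 14 called epithelial cells in order of stage, and by 19 of 34, 3 of 10, 35 of 71 and 0 of 2 called mesenchymal cells. The S cut alone was passed by 5, 7 and 6 epithelial cells of the embryonic stages (5.10%, 15.6% and 1.13%) and by 23, 3 and 19 mesenchymal cells (17.0%, 9.68% and 6.71%). At P0 no cell did, which allows a share of up to 1.30% in epithelium and 1.10% in mesenchyme by 3 counts of the total (exact upper limits 1.59% and 1.34%).

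Summed over the 42 genes, the level in epithelium was 3106, 1862, 1389 and 844 CPM from E13.5 to P0, and in mesenchyme 3356, 5787, 2846 and 329 CPM. The Poisson intervals of these 8 sums did not overlap except for E13.5 epithelium and E13.5 mesenchyme (2952 to 3266 and 3219 to 3497). They leave out spread between cells, although 812 of the 897 UMIs in E14.5 mesenchyme came from 10 called cells. Called cells held most UMIs of the 42 genes in every embryonic group, from 63.2% in E14.5 epithelium to 90.5% in E14.5 mesenchyme, and 51.5% and 22.7% at P0. Within called cells the sum was lower in epithelium (7049, 10600.0, 6472 and 7143 CPM from E13.5 to P0) than in mesenchyme (11159, 16240, 9431 and 10200.0 CPM). The rule of the call uses these genes, so this is a description of the cells it picked. In the other cells the sum lay between 555 and 810 CPM at the embryonic stages and was 436 (epithelium) and 256 CPM (mesenchyme) at P0. For comparison, barcodes with at least 500 and under 1000 UMIs, which can hold free RNA or damaged cells, had 2824, 2034, 1609 and 660 CPM in order of stage.

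The epithelium-to-mesenchyme ratio of the sum was therefore close to 1 at E13.5, under 1 for E14.5 as for E15.5, and over 1 at P0. It was 0.926 at E13.5 (interval 0.867 to 0.988). Epithelium was 3.11-fold lower at E14.5 (2.76 to 3.498) and 2.05-fold lower at E15.5 (1.96 to 2.14), and 2.57-fold higher at P0 (2.29 to 2.88). The P0 log2 ratio of 1.36 was 2.08 without thinning and 1.98 with a minimum of 10000 UMIs a cell. Single genes were compared where they had at least 20 UMIs over both groups, with 2-fold as the call. A gene could pass through its higher group alone, as Cenpa did at P0 with 21 and 1 UMIs. The counts and median ratios of the genes compared depend on this minimum, which was the same for all genes. At E13.5, 4 of 38 genes were at least 2-fold higher in epithelium (10.4% of all genes compared) and 2 lower (18.8% of all). The 4 were Kif11, Ndc80, Ncapd2 and Ect2, and the 2 were Plk1 and Ccna2. Before thinning, the 4 were each under 2-fold higher in epithelium. They had 85.2 and 52.3 CPM (Kif11), 33.8 and 33.2 (Ndc80), 44.6 and 34.0 (Ncapd2), and 46.5 and 27.0 (Ect2). Plk1 (6.37 and 32.0 CPM) and Ccna2 (28.4 and 65.6) stayed more than 2-fold lower. At E14.5, 17 of 18 were lower (14.7% of all), and at E15.5 28 of 41 (18.7% of all). At P0, 9 of 13 were higher (23.4% of all). With another random thinning, Ncapd2 at E13.5 had a log2 ratio of -0.094 in place of 1.14. Counted over all 42 genes with no minimum, epithelium was lower for 26, 40, 40 and 5 genes in order of stage, the 5 at P0 being Ccnb1, Ccnb2, Aurka, Aurkb and Hjurp. On counts before thinning, each of these 5 was instead higher in P0 epithelium, among them Aurkb at 9.18 and 0.798 CPM (24 and 2 UMIs). The median log2 ratio of the genes compared was -0.22, -1.82, -1.23 and 1.98 in stage order, against -0.10, 0.11, -0.01 and 0.27 over all genes compared.

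The 3 comparisons of E15.5 with another stage share the E15.5 cells and are given side by side. In epithelium, the E15.5 sum was 2.24-fold lower than at E13.5 (2.10 to 2.37), 1.34-fold lower than at E14.5 (1.21 to 1.48) and 1.65-fold higher than at P0 (1.53 to 1.77). Against E13.5, 24 of 36 genes were at least 2-fold lower (12.8% of all genes compared). Against E14.5, 6 of 34 were lower (14.2% of all), with Ccna2 (3.78-fold) and Tpx2 (3.20-fold) farthest down (Tpx2 had a log2 ratio of 0.10 in place of -1.68 with a mitochondrial maximum of 10%), and 1 higher (10.1% of all), which was Anln with 1 UMI at E14.5. Against P0, 18 of 36 were higher (17.7% of all). With a minimum of 10000 UMIs a cell, the epithelial E15.5 to P0 log2 ratio of the sum was 0.23 in place of 0.72. By marker lists, the epithelial class was divided differently at each stage. Cells with more skin than mammary markers, by lists described with the splits of each tissue, were 50 of 98, 9 of 45, 328 of 532 and 31 of 230 epithelial cells in order of stage, and their part in the ratios between stages was not tested. Without thinning, E15.5 had 254 cells with more skin and 194 with more mammary markers. These classes thus moved with depth and are no proof of tissue identity. The sum was 2042, 1563, 1249.5 and 751 CPM in cells with more mammary markers and 3792, 3200.0, 1317 and 1161 CPM in cells with more skin markers. In mesenchyme, the E15.5 sum was 1.18-fold lower than at E13.5 (1.12 to 1.24), 2.03-fold lower than at E14.5 (1.89 to 2.19) and 8.65-fold higher than at P0 (7.85 to 9.56). The counts were 1 of 41 higher and 2 lower than at E13.5 (7.54% and 11.6% of all), and 24 of 39 lower and 1 higher than at E14.5 (13.8% and 10.4% of all). The genes named by these small counts were Ncapg (2.12-fold higher than at E13.5), Plk1 and Ckap2l (2.70-fold and 2.01-fold lower) and Aurkb (2.25-fold higher than at E14.5, where it had 2 UMIs), and Ckap2l had a log2 ratio of 0.15 with another thinning. Before thinning, Aurkb was instead lower at E15.5, with 32.1 CPM against 60.9 at E14.5 (233 and 51 UMIs). Ncapg, Plk1 and Ckap2l kept their direction there. Against P0, the 37 genes compared were all at least 2-fold higher (25.3% of all), with Bub1, Kif20a and Ect2 as bounds because P0 mesenchyme had 0 UMIs, and the 42 genes had a higher E15.5 value. The level was highest in E14.5 mesenchyme (31 cells) for 34 genes, in E13.5 mesenchyme for 5 (Ccnb2, Aurka, Aurkb, Ttk and Kif2c) and in E13.5 epithelium for 3 (Ncapd2, Bub1 and Cdca8), and lowest in P0 mesenchyme for 36. Before thinning, each gene named here was instead highest in E14.5 mesenchyme. Ccnb2 then had 90.7 CPM there and 56.5 in E13.5 mesenchyme, and Ncapd2 75.2 there and 44.6 in E13.5 epithelium.

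**Figure D3:**
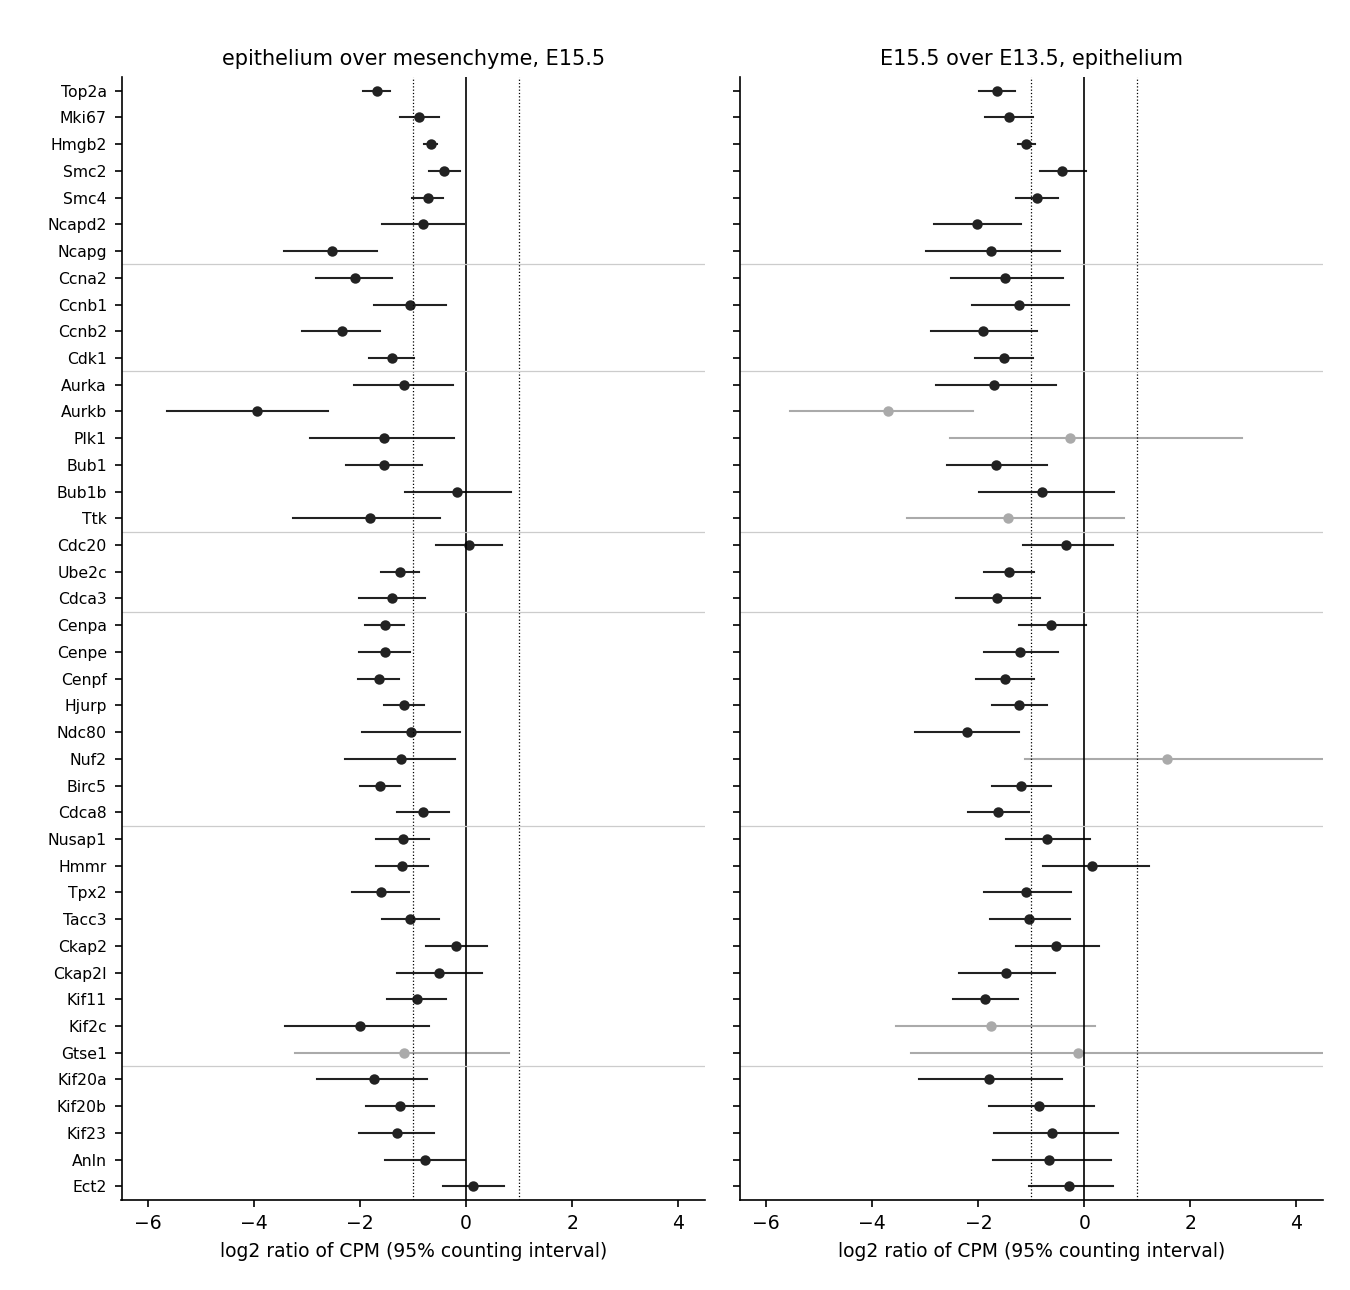
Ratio of CPM (log2 axis) for each of the 42 genes, grouped by role, of epithelium over mesenchyme at E15.5 (left panel) and of E15.5 over E13.5 in epithelium (right panel), with exact 95% intervals for counting error cut at the plot edge, dotted lines at 2-fold, and genes under the minimum of 20 UMIs in grey. On the left 40 of the 42 genes lie below equal levels, and on the right 24 of the 36 genes compared lie at least 2-fold lower.

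Counted as UMIs and not scaled by length, the chromosome structure genes made up 38.5% to 58.2% of the UMIs of the 42 genes in called cells, and Hmgb2 alone 18.8% to 30.1%. Top2a (chr11:98992943-99024189, GRCm38) had 237, 75.6, 75.2 and 63.5 CPM in epithelium and 234, 542, 242 and 16.1 in mesenchyme from E13.5 to P0. Its E13.5 values were alike in both tissues (ratio 1.01, interval 0.789 to 1.29). At E15.5 it was 3.22-fold lower in epithelium (2.70 to 3.86), and at P0 3.94-fold higher (2.42 to 6.66). Between E15.5 and P0 its epithelial level differed within counting error (1.18-fold, 0.902 to 1.57) and its mesenchymal level was 15.0-fold lower at P0 (9.77 to 24.3 for the ratio of E15.5 to P0). Before thinning its epithelial order was opposite, with 100 CPM at E15.5 and 126 at P0 (1435 and 329 UMIs). P0 mesenchyme then had 15.6 CPM, so the P0 difference between tissues was larger than 3.94-fold.

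Mki67, which coats mitotic chromosomes, had 129, 44.4, 47.7 and 35.7 CPM in epithelium and 107, 168, 88.3 and 6.59 in mesenchyme from E13.5 to P0. Before thinning, its epithelial level was instead higher at P0 (70.8 CPM) than at E15.5 (58.4). Hmgb2 had 980, 609, 459 and 316 CPM in epithelium and 919, 1265, 731 and 108 in mesenchyme. Its E15.5 difference between tissues was smaller than that of Top2a, 1.59-fold (1.47 to 1.73). The condensin ATPases Smc2 and Smc4 were 1.33-fold (1.08 to 1.63) and 1.66-fold (1.35 to 2.03) lower in E15.5 epithelium, the first being the smallest difference in this group. Ncapg, a non-ATPase condensin subunit, had 6.02 CPM in epithelium and 34.6 in mesenchyme at E15.5, 5.76-fold lower (3.22 to 10.8). Ncapd2, another such subunit, was 4.07-fold lower in E15.5 than in E13.5 epithelium (2.29 to 7.13). Smc4 kept 85.2 and 58.6 CPM at P0, 2.22-fold under E15.5 in mesenchyme (1.70 to 2.92), where the sum of the 42 genes was 8.65-fold under it.

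The 4 cyclin and Cdk genes were each at least 2-fold lower in E15.5 epithelium than in mesenchyme (18.7% of all genes compared), with a median log2 ratio of -1.75. Cdk1, the mitotic kinase itself (chr10:69335146-69352938), had 89.8, 40.0, 31.2 and 15.7 CPM in epithelium and 108, 155, 82.7 and 3.66 in mesenchyme from E13.5 to P0. It was 2.65-fold lower in epithelium at E15.5 (1.98 to 3.55) and 4.27-fold higher at P0 (1.53 to 14.7). Ccna2, the A-type cyclin of S phase and G2, had 9.40 CPM in E15.5 epithelium and 40.3 in mesenchyme, 4.29-fold lower (2.63 to 7.16). The corresponding E13.5 values were 26.5 and 56.3. The B-type cyclins Ccnb1 and Ccnb2 were 2.08-fold (1.30 to 3.34) and 5.07-fold lower (3.095 to 8.57) in E15.5 epithelium. In P0 cells Ccnb1 had 2 UMIs in epithelium and 4 in mesenchyme, and Ccnb2 5 and 8, too few to compare.

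Among kinases and the spindle checkpoint, 5 of 6 genes were at least 2-fold lower in E15.5 epithelium (18.7% of all genes compared). Aurkb, the kinase of the chromosomal passenger complex, had 5 UMIs in 532 epithelial cells and 41 in 283 mesenchymal cells at E15.5, a 15.4-fold difference (6.10 to 49.98). Without thinning its counts were 91 and 233 UMIs (6.37 and 32.1 CPM), a smaller difference that lies under this interval. At E13.5 it had 24.5 and 37.0 CPM, within counting error of each other (1.51-fold, 0.732 to 3.30). Aurka, the kinase of the spindle poles, had 7.52 and 17.0 CPM at E15.5 (2.26-fold, 1.19 to 4.31) and 24.5 and 32.6 at E13.5. Bub1, a checkpoint kinase at kinetochores, was 2.92-fold lower in E15.5 epithelium (1.79 to 4.82), and in mesenchyme it had 45 UMIs at E15.5 and 0 at P0. Ttk, which starts the checkpoint, had 8 and 15 UMIs in E15.5 epithelium and mesenchyme (3.52-fold, 1.40 to 9.60). Bub1b was the exception, with 9.40 and 10.6 CPM at E15.5 (1.13-fold, 0.553 to 2.22). It had 10.8 CPM in epithelium and 22.5 in mesenchyme before thinning (154 and 163 UMIs), so the exception was not kept there. Plk1 had 2 UMIs in E13.5 epithelium against 18 in mesenchyme (6.53-fold lower, 1.56 to 58.1), the largest difference among the 38 genes compared at that stage.

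Of the genes for mitotic exit, Cdc20 (chr4:118432901-118437352) had 32.7, 17.8, 25.6 and 7.83 CPM in epithelium and 40.0, 83.9, 24.7 and 5.13 in mesenchyme from E13.5 to P0. Its E15.5 levels were alike in both tissues (1.03, interval 0.678 to 1.60), and it was 1 of 2 genes, with Ect2, that were not lower in epithelium at that stage. The interval of this ratio lay above those of Top2a and Cdk1. Cdc20 and Ect2 were both lower in E15.5 epithelium before thinning (27.6 and 37.2 CPM, and 34.8 and 36.1). Ube2c, the ubiquitin-conjugating enzyme of the anaphase-promoting complex, had 118, 71.1, 44.0 and 35.7 CPM in epithelium and 187, 219, 105 and 8.06 in mesenchyme. It was 2.38-fold lower in E15.5 epithelium (1.85 to 3.06) and 4.42-fold higher at P0 (2.23 to 9.54). Cdca3, which was placed in this group although it promotes mitotic entry, was 2.63-fold lower in E15.5 epithelium (1.72 to 4.05).

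Among centromere and kinetochore genes, 7 of 8 were at least 2-fold lower in E15.5 epithelium (18.7% of all genes compared), with a median log2 ratio of -1.38. Birc5 (chr11:117849251-117855743) had 81.6, 44.4, 35.7 and 12.2 CPM in epithelium and 119, 155, 110 and 5.13 in mesenchyme from E13.5 to P0, and was 3.07-fold lower in epithelium at E15.5 (2.36 to 4.002). Cenpa, the centromeric histone, had 38.3 and 111 CPM at E15.5 (2.89-fold, 2.24 to 3.75), and in mesenchyme went from 157 UMIs at E15.5 to 1 UMI at P0, a ratio of 151 with limits of 26.8 and 6020. The kinetochore motor Cenpe likewise had 1 UMI in P0 mesenchyme. Before thinning, Cenpa had 121 CPM in E15.5 and 2.79 in P0 mesenchyme (877 and 7 UMIs), a smaller ratio. Cenpf, a large kinetochore protein, was 3.14-fold lower in E15.5 epithelium (2.40 to 4.14) and 7.42-fold higher in P0 epithelium (2.56 to 29.3). The microtubule-binding Ndc80 was 2.48-fold higher in E13.5 epithelium than in mesenchyme (1.09 to 6.01) and 2.06-fold lower at E15.5 (1.09 to 3.91). With a minimum of 10000 UMIs a cell, its E13.5 log2 ratio was -0.35 in place of 1.31. Nuf2, its partner in the same complex, had 16 and 20 UMIs at E15.5, 2.35-fold lower in epithelium (1.16 to 4.85). Cdca8, another passenger protein, was 1.75-fold lower (1.24 to 2.47).

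Hjurp, the chaperone that loads Cenpa, stood apart from Cenpa at P0. It had 95.9, 35.6, 40.6 and 23.5 CPM in epithelium and 99.3, 194, 91.2 and 31.5 in mesenchyme from E13.5 to P0. Its P0 levels in the tissues lay within counting error of each other (ratio of epithelium to mesenchyme 0.745, 0.443 to 1.23), whereas Cenpa was 24.9-fold higher in P0 epithelium (4.01 to 1031) on 21 UMIs against 1. Before thinning, Cenpa had 65 UMIs in P0 epithelium and 7 in mesenchyme (24.9 and 2.79 CPM), a smaller difference in the same direction. In mesenchyme Hjurp was 2.89-fold higher at E15.5 than at P0 (2.03 to 4.19).

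The spindle genes were lower in E15.5 epithelium by a median log2 ratio of -1.13, with 5 of the 8 compared past 2-fold (18.7% of all). Kif11 (chr19:37376403-37421859) had 79.6, 17.8, 21.8 and 9.57 CPM in epithelium and 28.1, 123, 41.7 and 4.40 in mesenchyme from E13.5 to P0. It was 2.83-fold higher in E13.5 epithelium than in mesenchyme (1.60 to 5.18) and 1.91-fold lower in E15.5 epithelium (1.31 to 2.80). Its E13.5 levels before thinning were 85.2 and 52.3 CPM, a smaller difference. Nusap1, which bundles spindle microtubules, had 23.7 and 54.4 CPM at E15.5 (2.30-fold, 1.63 to 3.26). The spindle assembly factor Tpx2 and the microtubule-binding Hmmr were 3.05-fold (2.11 to 4.47) and 2.31-fold (1.65 to 3.24) lower in epithelium, and Tacc3, a spindle stabiliser, 2.07-fold (1.43 to 3.01). Ckap2, also on the spindle, had 26.7 and 30.4 CPM (1.14-fold, 0.761 to 1.69), and its relative Ckap2l 12.4 and 17.7 (1.42-fold, 0.812 to 2.47), both within counting error of the thinned UMIs. Before thinning, both genes differed more between the tissues, with lower levels in epithelium but under 2-fold. Ckap2 then had 21.69 and 35.54 CPM (310 and 258 UMIs), and Ckap2l 14.48 and 25.21 (207 and 183 UMIs). Kif2c, which depolymerises microtubules, had 8 and 17 UMIs (3.99-fold, 1.63 to 10.7). Gtse1, a microtubule-associated protein of G2, had 5 and 6 UMIs at E15.5 and at most 6 in any group.

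Of the cytokinesis genes, 3 of 5 were at least 2-fold lower in E15.5 epithelium (18.7% of all genes compared). The kinesins of the central spindle Kif20a, Kif20b and Kif23 were 3.36-fold (1.68 to 6.99), 2.36-fold (1.52 to 3.69) and 2.47-fold lower (1.52 to 4.04). Kif23 had 10.4 CPM in P0 epithelium and 10.3 in P0 mesenchyme. Ect2, which acts in building the contractile ring, had 36.7, 17.8, 30.1 and 6.96 CPM in epithelium and 16.3, 45.2, 27.6 and 0 in mesenchyme from E13.5 to P0, so that E15.5 mesenchyme was at least 12.5-fold above P0, with E15.5 levels alike in both tissues (1.09, 0.735 to 1.64). Anln, the ring scaffold anillin, had 20.4, 4.44, 12.8 and 23.5 CPM in epithelium and 16.3, 45.2, 21.9 and 1.47 in mesenchyme. It was the only gene of the 36 compared whose interval lay above E15.5 in P0 epithelium (1.84-fold higher at P0, 1.07 to 3.14), and at P0 it was 16.0-fold higher in epithelium than in mesenchyme (4.03 to 139) on 27 UMIs against 2.

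**Figure D4:**
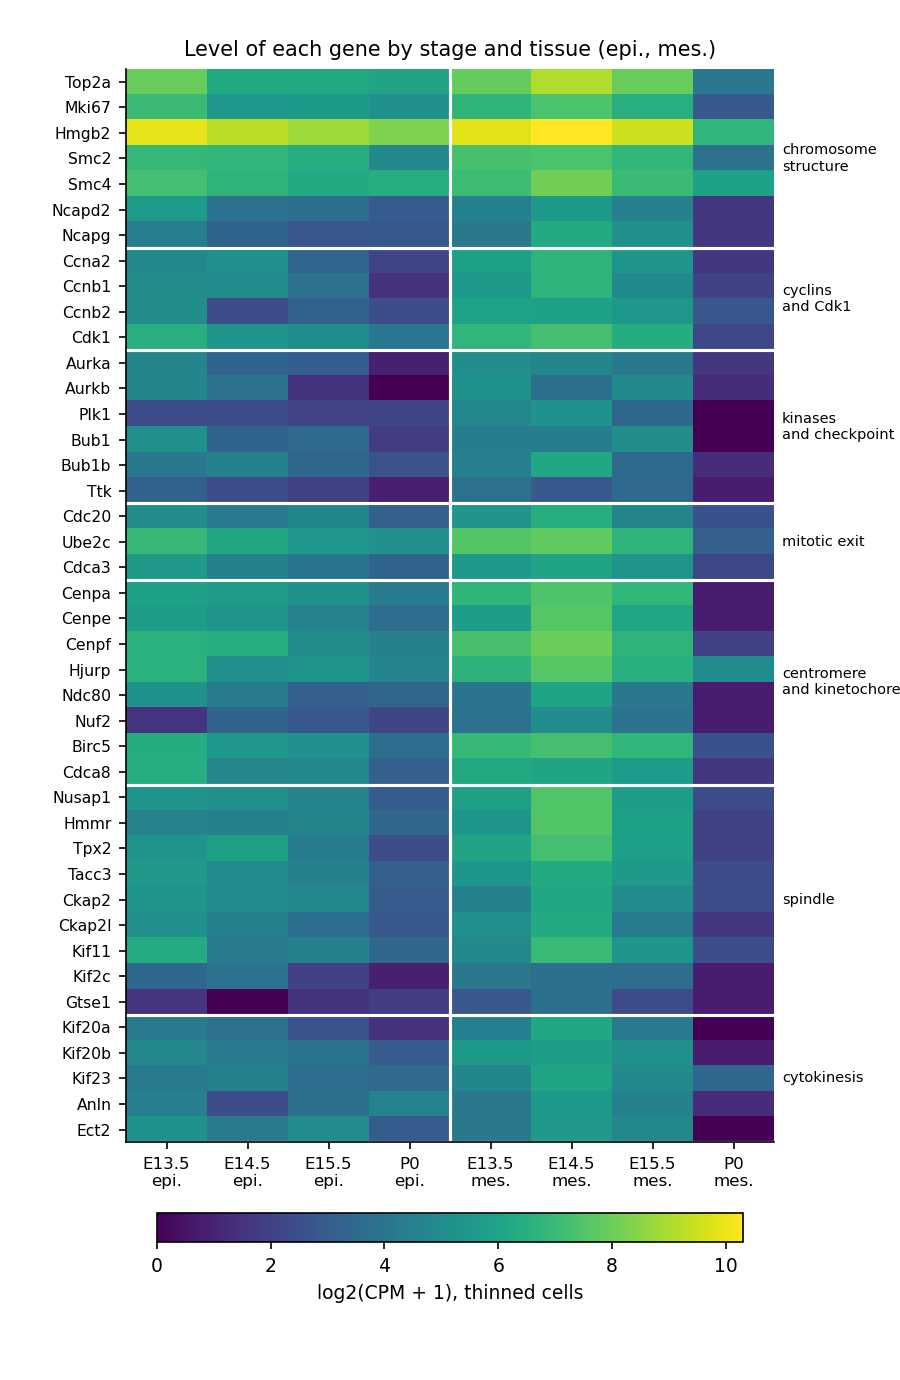
Level of each of the 42 genes, grouped by role, in the 8 groups of stage and tissue (colour, log2 of CPM plus 1, thinned cells). The E14.5 mesenchyme column holds the highest value for 34 genes and the P0 mesenchyme column the lowest for 36.

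The genes were not equally tied to the call. Each gene was set against cells called from the other 41 genes with the same cut of 10, which keeps its own counts out of the call. In E15.5 epithelium Top2a was found in 82.9% of called and 5.63% of other cells, with a 32.2-fold ratio of levels, and in mesenchyme in 91.5% and 7.55% (34.9-fold). Kif11 and Nusap1 gave ratios of 82.3 and 72.9 in epithelium and 173 and 112 in mesenchyme. Hmmr and Ccnb1 had 0 UMIs in the 212 other mesenchymal cells, so that called cells were at least 80.6-fold and 40.8-fold higher. These ratios are a description, since the 42 genes are known to be transcribed together.

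At the other end, Hjurp was found in 34.7% of called and 15.3% of other epithelial cells, a 2.80-fold ratio, and in 57.7% and 21.7% of mesenchymal cells, a 3.77-fold ratio. Hmgb2 was found in every called cell, and also in 67.2% of other epithelial and 64.6% of other mesenchymal cells, with ratios of 6.61 and 8.17. Smc2 and Smc4 were found in 14.3% and 18.0% of the other epithelial cells and in 16.5% and 17.0% of the other mesenchymal cells. After Hjurp, and apart from the rarely counted Gtse1, the smallest ratios were those of Ckap2 in epithelium (5.16) and Ncapg in mesenchyme (6.16). Gtse1 was found in 0 of 75 called epithelial cells and 5 of 457 others. With Hmgb2, Smc2, Smc4 and Ncapd2 taken out of the call and the cut of 10 kept for the other 38 genes, the E15.5 shares were 11.3% and 24.0%, and the P0 shares 4.78% and 0.733%.

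**Figure D5:**
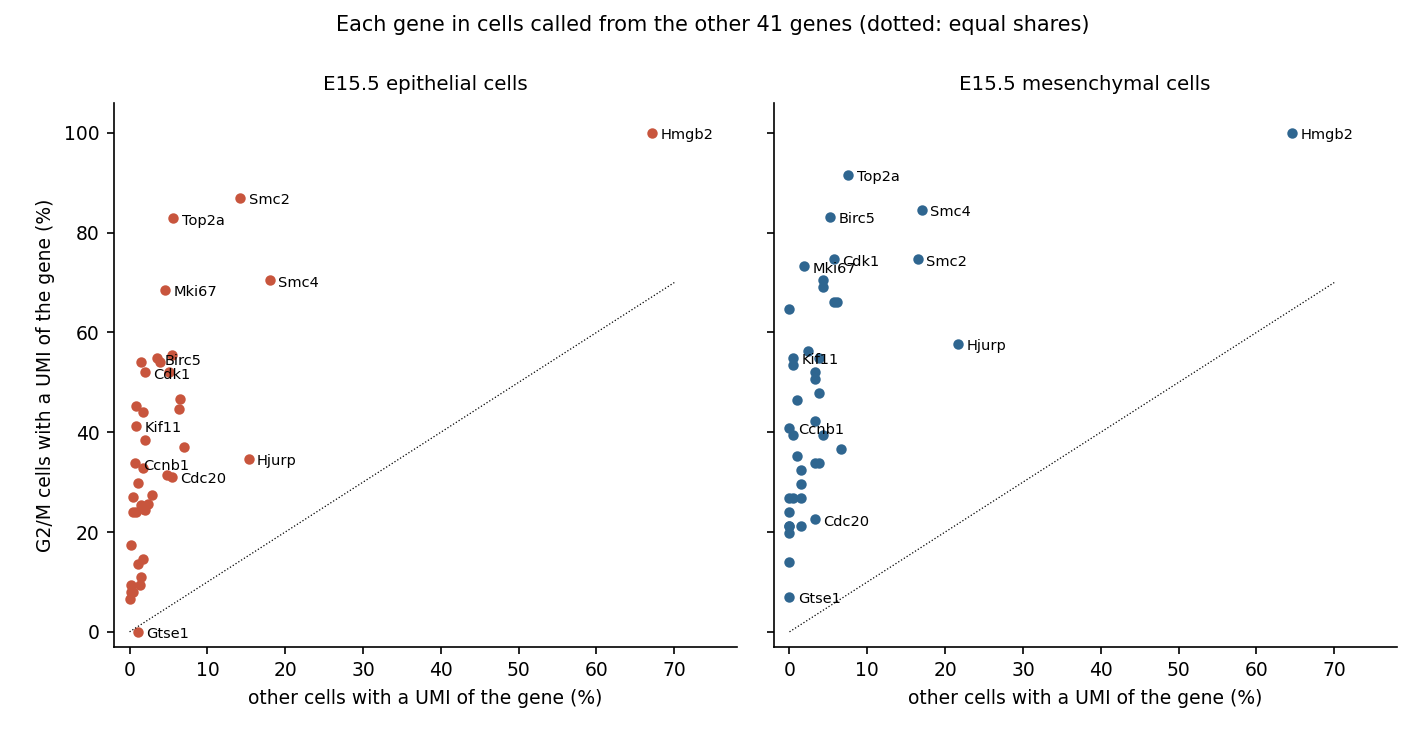
Share of E15.5 cells with a UMI of each gene (percent) in cells called G2/M from the other 41 genes (vertical axis) against the remaining cells (horizontal axis), 1 point per gene, for epithelium and mesenchyme, with equal shares as a dotted line. Hmgb2 (67.2% and 64.6%), Smc4, Smc2 and Hjurp lie to the right, with high shares in the remaining cells.

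Cdc20, which acts at the end of the sequence, was found in a subset of called cells and also in cells not called. Called or not, 48 epithelial and 23 mesenchymal cells held a Cdc20 UMI at E15.5, and 8 epithelial cells at P0. A Cdc20 UMI was found in 24 of 75 called epithelial cells at E15.5 (32.0%, interval 21.7 to 43.8) and in 16 of 71 mesenchymal cells (22.5%, 13.46 to 34.0), and a Plk1 UMI in addition in 4 and 3 of them. Called cells with Cdc20 held a median of 7 and 7.5 of the 40 S phase genes, and those without it 11 and 11. At E13.5 the medians were 9 with and 12 without in epithelium (10 and 27 cells), and 7 with and 17 without in mesenchyme (13 and 21 cells). At E14.5 they were 9 with and 8 without in epithelium (3 and 2 cells), the opposite order, and 5 and 12.5 in mesenchyme (6 and 4 cells). P0 epithelium had 4.5 with and 7 without (2 and 12 cells). These cell counts are small and come from 1 library per stage.

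Each tissue was also split by marker lists. Each cell went to the list with more of its genes found, and ties formed a class of their own, so the classes are rough and a list's name is no proof of identity. In E15.5 mesenchyme, 60 of 184 cells with more sub-epithelial markers were called (32.6%, 25.9 to 39.9), against 6 of 70 with more dermal markers (8.57%, 3.21 to 17.7). Their median depths were 26508.5 and 20970 UMIs, and without thinning the shares were 42.6% and 6.98%. At E13.5 the same lists gave 14 of 61 (23.0%, 13.2 to 35.5) and 13 of 47 (27.7%, 15.6 to 42.6), which overlapped. Of the cells with equal numbers of both, 7 of 27 were called at E13.5 and 5 of 29 at E15.5. At E15.5 the summed level of the 42 genes was 3509 CPM in the cells with more sub-epithelial markers and 1346 in those with more dermal markers, and at E13.5 2925 and 3770.

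The mammary list was Tbx3, Sostdc1, Pthlh, Ndnf, Lmo1, Msx1, Msx2, Wnt10b, Bmp2, Elf5, Cited1, Prlr, Aldh1a3, Wfdc18, Csn3 and Kit. The skin list was Krt1, Krt10, Krt77, Krt15, Krt4, Sbsn, Dsc1, Lor, Gabrp, Krt6a, Krt17, Hopx, Cnfn, Calml3, Fabp5 and Has2. By its own clustering, the study counted more mammary epithelial cells at E15.5 than the mammary class here. In epithelium, cells with more mammary markers were called in 8 of 33 cases at E13.5 (24.2%, 11.1 to 42.3) and cells with more skin markers in 22 of 50 (44.0%, 30.0 to 58.7), with overlapping intervals. At E15.5 the shares were 11 of 105 (10.5%, 5.35 to 18.0) and 43 of 328 (13.1%, 9.65 to 17.3). Of the cells with equal numbers of both, 7 of 15 were called at E13.5 (46.7%, 21.3 to 73.4) and 21 of 99 at E15.5 (21.2%, 13.6 to 30.6), so that 21 of the 75 called E15.5 epithelial cells lay in neither class. At E14.5, 2 of 27 cells with more mammary markers, 3 of 9 with more skin markers and 0 of 9 with equal numbers were called, and at P0 these were 8 of 168, 3 of 31 and 3 of 31. The E15.5 mammary share was 30.4% without thinning (194 cells) and 18.0% with a minimum of 10000 UMIs (20 of 111 cells), so its order against the skin share (20.5% and 10.0%) was not kept. That minimum came with a new thinning, so classes and calls changed too, and the part of depth alone was not tested. At P0, 7 of 39 cells with more mature luminal markers were called (17.9%, 7.54 to 33.5), 5 of 162 with more luminal progenitor markers (3.09%, 1.01 to 7.06) and 0 of 17 with more basal markers, which allows a share of up to 17.6% (3 counts of the total, with an exact upper limit of 19.5%). The first 2 intervals did not overlap, the median depths were 13122, 9562.5 and 10451 UMIs, and with a minimum of 10000 UMIs the first 2 shares were 22.2% and 11.3%. The latter share was 8 of 71 cells, more calls than in the main setting, as thinning was redrawn. P0 mesenchyme had 1 called cell among 115 with more adipogenic fibroblast markers and 1 among 127 with more Pi16/Dpp4 fibroblast markers.

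Genes outside the 42 were compared between called and other E15.5 cells, as a description of the cells the call picked. Of a list of 55 other mitosis genes, 27 of the 28 with enough UMIs were at least 2-fold higher in called epithelial cells (6.77% of all genes compared) and 35 of 36 in mesenchymal cells (8.01% of all). Prc1, which bundles the central spindle, was 7.38-fold higher in epithelium (5.57 to 9.78) and 20.7-fold in mesenchyme (11.5 to 40.3). The Cdk subunit Cks2 was 3.21-fold (2.68 to 3.84) and 7.96-fold higher (5.88 to 10.9), its paralogue Cks1b 3.03-fold and 3.49-fold, the nuclear lamina gene Lmnb1 2.96-fold and 4.04-fold, and Ube2s, a ubiquitin-conjugating enzyme of the anaphase-promoting complex, 2.39-fold and 2.80-fold. The S phase list gave 28 of 31 and 24 of 31 past 2-fold. Pclaf, the PCNA-associated factor, was 16.6-fold (11.5 to 24.4) and 16.1-fold higher (11.2 to 23.7), the replication clamp Pcna 3.34-fold and 2.40-fold, the histone mRNA-binding Slbp 2.15-fold and 2.99-fold, and the origin recognition gene Orc6 2.41-fold and 2.06-fold. Ccne1, the cyclin of S phase entry, was not apart (1.36 with limits of 0.958 and 1.90, and 0.878 with limits of 0.253 and 2.48).

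The list of 10 G1 and cell cycle exit genes moved less. In epithelium 1 of 9 was at least 2-fold higher, the Cdk inhibitor Cdkn1b (2.68-fold, 1.55 to 4.51, on 22 and 50 UMIs), which falls outside the naming rule and was named after its value was seen, and 0 were lower (6.03% of all genes compared). In mesenchyme none of 8 was higher and 2 were lower (6.71% of all genes compared). Ccnd2, a D-type cyclin of G1, was 1.76-fold lower in called epithelial cells (1.58 to 1.96) and 1.98-fold lower in mesenchymal cells (1.63 to 2.43). The Cdk inhibitor Cdkn1c was alike in epithelium (1.00, 0.801 to 1.24) and 2.32-fold lower in called mesenchymal cells (1.99 to 2.71), and the antiproliferative Btg2 was 1.16 (0.894 to 1.48) and 2.53-fold lower (1.71 to 3.87). The Cdk inhibitor Cdkn1a was 1.09 (0.903 to 1.31) and 1.27 (0.795 to 1.99), and Ccnd1, another D-type cyclin, 0.937 (0.537 to 1.55) and 0.629 (0.468 to 0.833). Of genes in none of these lists with at least 50 UMIs, the replication-dependent histone gene Hist1h2ap (14.9-fold, 10.98 to 20.4) and the centromere gene Cenpq (12.2-fold, 7.24 to 21.1) had the largest ratios in epithelium. In mesenchyme these were Gm26870 (66.2-fold, 29.6 to 184) and the linker histone gene Hist1h1b (56.1-fold, 23.2 to 177). The genes with the 10 largest ratios in both tissues were Hist1h2ap, Hist1h2ae, Cenpq, H2afx and Gmnn, the last encoding the replication licensing inhibitor geminin. Histone genes have near-identical copies, and how reads were shared among them is not given, so their values are uncertain.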

How the data were processed

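Single-cell libraries of sorted mouse mammary cells were prepared with the 10x Chromium 3' v3.1 kit, 1 library for each of 4 stages. The authors deposited, for each library, raw UMI counts per gene and barcode, made with Cell Ranger on mm10. The submitters' processing notes name version 6.0.0 throughout, while the file headers name 3.1.0 for E15.5, whose gene list is shorter (31053 against 32285 genes). Ensembl identifiers were used to join the stages. All columns of the tables were mapped to a stage.

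Cells under 5000 UMIs or over 6% mitochondrial UMIs were left out, as the study's methods state. The 235, 76, 816 and 503 kept cells are more than the study states for each stage, for a reason not given in the sources used here. Each cell was thinned without replacement to 5000 UMIs with 1 fixed seed, in Python 3.11.15 with numpy 2.4.6, scipy 1.17.1 and pandas 2.3.3. Alternatives that changed which cells were kept also redrew the thinning, so calls and marker classes could change in cells that stayed. A cell was called G2/M at 10 or more of the 42 genes with a UMI. S phase was called at 10 or more of 40 genes in cells not called G2/M. Phase scores for the alternative came from scanpy 1.11.5. Levels are summed thinned counts in CPM. Shares have exact Clopper-Pearson intervals, levels exact Poisson intervals and ratios exact conditional binomial intervals, all at 95% and for counting error only. Ratios were counted as called at 2-fold among genes with at least 20 UMIs over both groups, and against 0 UMIs a floor of 3 counts over the group was used. No doublet caller was run. The doublet exclusion in the labels belongs to cell sorting and does not cover cells captured together in 1 droplet, so doublets within a tissue were not examined. An alternative leaves out cells in which the lesser of both tissues' gene sums is at least 20% of the larger. Interval code was tested on simulated data.

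The text names the 42 genes, the 5 genes with the most UMIs at E15.5 of each further list, and the 10 genes outside all lists with the largest ratio of called to other cells at E15.5 among those with at least 50 UMIs, of which the text gives a selection, and Cdkn1b besides. The 42 genes, the lists and the tests were chosen with earlier results of these data known. Alternatives were a cut of 8 or 12 genes, a call without 4 abundant genes, phase scores, a mitochondrial maximum of 10%, a minimum of 10000 UMIs, no thinning, another seed, gene minimums of 1 and 5 UMIs, and leaving out cells with markers of both tissues. An alternative without cells in which over 1% of UMIs are erythroid was added after seeing the data. Promoter sequences are RefSeq's for GRCm38.p6, 1 per gene, and gene positions are GENCODE's for GRCm38.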

Additional observations from a re-analysis of the deposited data

Results flagged for a closer look

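The difference between tissues in the share of called cells turned round between E15.5 and P0. Epithelium minus mesenchyme was -10.99 percentage points at E15.5 and 5.35 percentage points at P0, and this difference between stages was not tested, since each stage has 1 library. At P0 it rests on 14 and 2 called cells, at a median depth of 9226 UMIs against 24646.5 at E15.5, and the part of depth, dissociation and session in it was not tested.

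Transcripts of the 42 genes were also found outside the analysed cells. Barcodes under the minimum of 5000 UMIs but within the mitochondrial limit, which no comparison used, held 3234, 2127, 1623 and 553 CPM of these genes in order of stage, each lower than in the kept cells of the same stage (3826, 4389, 2349 and 829 CPM over the UMIs before thinning). Among them, 10, 13, 25 and 2 barcodes held at least 10 of the 42 genes.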

How the results depend on the processing

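Each stage has 1 library, so no replicate could be left out, and the limits are counting error and depth. No paired analysis was possible because each stage has 1 library and no test was made. Of the values that answer a comparison, 310 stayed within their counting interval under the alternatives and 36 moved beyond it. The ratios among them kept their direction, while a share has no direction and could not be counted as reversed. Gene minimums of 1 and 5 UMIs, cuts of 8 and 12 genes, and leaving out cells with markers of both tissues or erythroid cells moved none of these values. Orders between shares did change. Phase scores put P0 epithelium (47.4%) above E13.5 epithelium (31.6%). Without thinning, the order of E14.5 and E15.5 epithelium and that of the E15.5 mammary and skin classes were reversed. The cause of the moves was not tested.

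Phase scores put the P0 shares at 47.4% in epithelium and 21.6% in mesenchyme, and at 48.2%, 41.9%, 35.3%, 50%, 43.6%, 24.3% and 17.3% in P0 cells with more mammary, skin, basal, luminal progenitor, mature luminal, adipogenic fibroblast and Pi16/Dpp4 fibroblast markers. Without Hmgb2, Smc2, Smc4 and Ncapd2 in the call, the E15.5 skin share was 9.45%. With a minimum of 10000 UMIs the shares were 12.5% in P0 epithelium, 9.72%, 26.3% and 11.3% in P0 cells with more mammary, skin and luminal progenitor markers, 0% in those with more Pi16/Dpp4 fibroblast markers, and 18.0% in E15.5 cells with more mammary markers. Without thinning they were 31.1% in E14.5 epithelium, 23.7% and 35.0% in E15.5 epithelium and mesenchyme, and 30.4%, 20.5% and 42.6% in E15.5 cells with more mammary, skin and sub-epithelial markers.

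The log2 ratios of the sum over the 42 genes also moved. With a mitochondrial maximum of 10%, they were -1.11 for epithelium over mesenchyme at E15.5, -1.32 and -0.26 for E15.5 over E13.5 and E14.5 in epithelium, and -0.79 for E15.5 over E14.5 in mesenchyme. With a minimum of 10000 UMIs, they were 1.98 between tissues at P0 and 0.23 for E15.5 over P0 in epithelium. Without thinning, they were -1.88, -1.12 and 2.08 between tissues at E14.5, E15.5 and P0, 0.35 for E15.5 over P0 in epithelium, and -0.10 and 3.55 for E15.5 over E13.5 and P0 in mesenchyme. Another seed gave -0.20 and -0.87 for E15.5 over E14.5 in epithelium and mesenchyme.

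Of the single-gene ratios examined, 8 were counted as changed in direction, including Cenpe, whose main log2 ratio of 0.91 was under 2-fold. They were Ncapd2 between tissues at E13.5 (log2 -0.035 with a mitochondrial maximum of 10% and -0.094 with another seed) and Tpx2 for E15.5 over E14.5 in epithelium (0.10 with a mitochondrial maximum of 10%). With a minimum of 10000 UMIs, Ndc80 between tissues at E13.5 (-0.35) and Cenpe, Cdca8 and Kif11 for E15.5 over P0 in epithelium (-0.53, -0.20 and -0.18) did so, as did Ckap2l for E15.5 over E13.5 in mesenchyme with another seed (0.15). Changes of order without thinning given above, among them those of Top2a, Aurkb, Hjurp, Cdc20 and Ect2, are not in this count. More genes than these 8 therefore changed order with the processing.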
